A study of Danio rerio with 11 samples.

Results

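The GDNF receptor family was followed across zebrafish embryos with mutations in lsd1 and their wildtype siblings. It comprised gfral (ENSDARG00000089709), gfra1a, gfra1b, 2 gene identifiers that share the symbol GFRA2, gfra3, gfra4a and the signalling receptor ret. These were 8 of the 23617 genes in the count table. The set was picked because gfral fell in mutants of both lines, so its mutant and wildtype levels are given as a description without a test, and the other 7 genes were taken by family. RNA came from tails, cut behind the yolk, at 24 hours post fertilisation. Each library was a pool of 5 tails. Line 36433 gave 3 mutant and 3 wildtype libraries, and line 23095 gave 3 mutant libraries (replicates 1, 2 and 4) and 2 wildtype libraries. The labels name each genotype only by its line number and as mutant or wildtype. They give neither the kind of lesion nor its zygosity, and do not say if pools of 1 group were taken from different clutches.

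GFR-alpha proteins sit at the cell surface and bind ligands of the GDNF family, which they present to RET, a receptor tyrosine kinase. In mammals, GFR-alpha 1 is the main receptor for GDNF, GFR-alpha 2 for neurturin, GFR-alpha 3 for artemin and GFR-alpha 4 for persephin. GFRAL is a distant member that in mice and humans binds GDF15 in the hindbrain, signals through RET and lowers food intake. In zebrafish, ret and the gfra1 genes serve the precursors of enteric neurons, and ret is also known from motor neurons and the pronephric ducts. Lsd1, the product of kdm1a, removes methyl groups from histone H3 and acts mostly as a repressor with partner proteins.

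Total counts ran from 8204459, in mutant replicate 2 of line 23095, to 17195875. Levels are given as CPM, counts scaled to library size with TMM factors, and 1 CPM stood for 7.72 to 17.7 counts, depending on the library. The kdm1a transcript measured 36.9, 34.2 and 34.8 CPM in the 36433 mutants against 162, 155 and 135 CPM in their wildtypes (log2 fold change -2.10, SE 0.15, adjusted p = 6.93e-05). In line 23095 it measured 130, 170 and 130 CPM in mutants against 124 and 142 CPM in wildtypes (log2 fold change 0.11, SE 0.16, adjusted p = 0.781). The transcript level therefore marks the genotype in line 36433 and does not check it in line 23095. Skeletal muscle markers were high in every library (atp2a1 at 3669 to 12202 CPM), and the head markers OTX2 and EGR2 reached at most 2.15 and 1.73 CPM. Wildtype replicate 1 of line 36433 stood apart from the other wildtypes of its line, with a chi-square per degree of freedom of 55.2 and 50.1 against them. The pairs within the mutants of that line gave 9.54 to 15.4, and the pairs within the 23095 mutants gave 29.0 to 40.1.

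The transcript of gfral was low in every mutant library and higher in every wildtype library of both lines. In line 36433 the wildtypes held 55, 199 and 123 counts, or 3.53, 13.4 and 7.87 CPM, and the mutants held 6, 5 and 6 counts, or 0.468, 0.313 and 0.434 CPM. In line 23095 the wildtypes held 84 and 41 counts, or 5.30 and 2.78 CPM, and the mutants held 5, 1 and 10 counts, or 0.298, 0.130 and 0.564 CPM. No mutant library reached the lowest wildtype library, which held 2.78 CPM. The library with a single count had an exact 95% Poisson interval of 0.00328 to 0.722 CPM, which covers counting error only.

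In the fit, gfral differed by -4.33 (SE 0.55) on the log2 scale in line 36433, a level 20.2-fold lower in mutants. The corresponding value in line 23095 was -3.43 (SE 0.60), or 10.8-fold lower, and the average over both lines was -3.88 (SE 0.41). Leaving out each library in turn gave -4.70 to -3.80 in line 36433 and -4.05 to -2.89 in line 23095. The value of -4.70 came from leaving out wildtype replicate 1 of line 36433, the library that stood apart and the lowest in gfral among its group. The difference between the lines' log2 fold changes was 0.91 with an SE of 0.88, given without a test since both values chose the gene. Since each library is bulk tissue, fewer cells that carry the transcript and less transcript per cell cannot be told apart, here or for any gene below.

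Ordered by mean level, gfral measured 8.26 ± 4.94 CPM (SD, n = 3) in 36433 wildtypes and 4.04 ± 1.78 CPM (n = 2) in 23095 wildtypes. It measured 0.405 ± 0.0819 CPM (n = 3) in 36433 mutants and 0.331 ± 0.219 CPM (n = 3) in 23095 mutants. The 2 wildtype groups overlapped, with a log2 difference of -1.03 (SE 0.49) as line 23095 minus line 36433. The 2 mutant groups overlapped as well, with a log2 difference of -0.12 (SE 0.73). Both differences are given without a test, since these levels chose the gene. The spread among wildtypes of line 36433 was wide, with replicate 2 holding 13.4 CPM and replicate 1 holding 3.53 CPM.

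**Figure D1:**
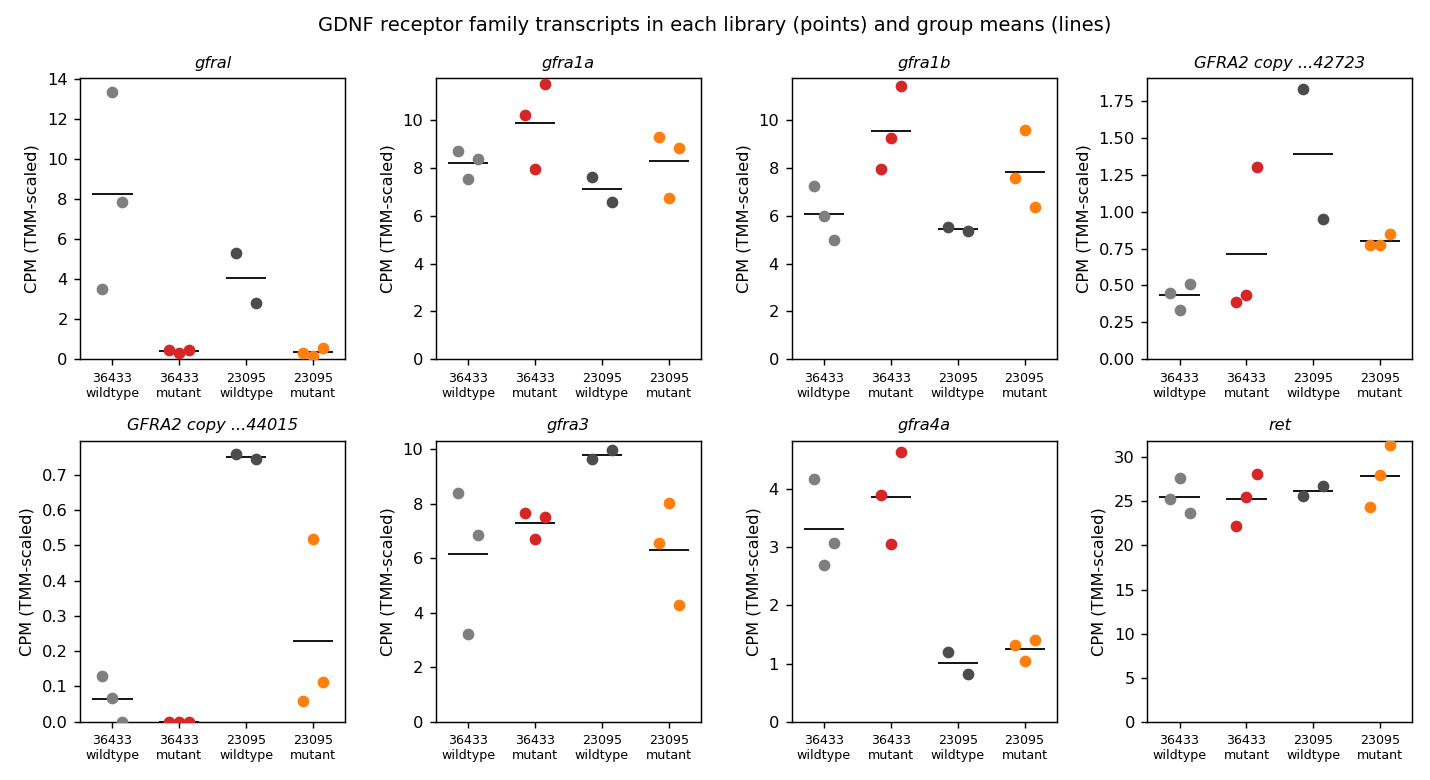
CPM of the 8 receptor family genes (vertical axis, linear, from 0) in each of 11 libraries, by line and genotype; points are libraries and lines are group means. The mutants of both lines sit at or below 0.564 CPM in gfral, while ret lies between 22.2 and 31.4 CPM in every library, and gfra4a is lower in line 23095 than in line 36433 in both genotypes.

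As a share of all counts assigned to the 7 co-receptor genes, gfral took 10.8%, 40.3% and 24.8% in the 36433 wildtypes and 16.6% and 10.2% in the 23095 wildtypes. In the mutants it took 1.53%, 1.13% and 1.18% in line 36433 and 1.15%, 0.483% and 2.51% in line 23095. The lowest Wilson bound of a wildtype library was 7.63%, and the highest bound of a mutant library was 4.56%. These bounds cover counting error only and are no test, since gfral was chosen for its fall in mutants. The percentages are shares of counts, which longer transcripts raise, and not shares of molecules. The other 6 co-receptors together measured 19.8 to 29.1 CPM in 36433 wildtypes and 27.4 to 36.4 CPM in their mutants. They measured 24.4 and 26.6 CPM in 23095 wildtypes and 21.9 to 26.7 CPM in their mutants, so the low share in mutants went with few gfral counts in every mutant library.

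**Figure D2:**
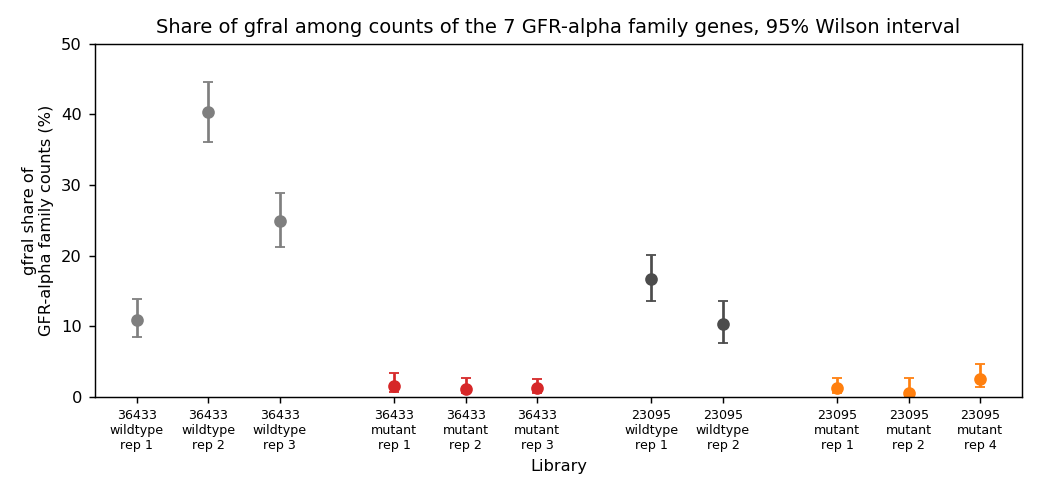
Share of gfral (vertical axis, percent) among the counts of the 7 co-receptor genes in each of 11 libraries, with 95% Wilson intervals that cover counting error only. All 5 wildtype libraries lie between 10.2% and 40.3%, and all 6 mutant libraries lie between 0.483% and 2.51%.

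All 8 genes passed the filter on low counts, although gfral passed only through its 5 wildtype libraries and 1 GFRA2 copy only through the 23095 wildtypes. Calls were made where the adjusted p was below 0.05. In line 36433, 1 of the 8 genes was called between mutants and wildtypes, where 0.168% of all 20886 tested genes were called. In line 23095, 1 of 8 was called against 1.63% of all genes, and in the average over both lines 1 of 8 against 2.33%. That gene was gfral each time, and since it was chosen from these comparisons the counts carry no weight. None of the other 7 genes was called by edgeR in any of these comparisons. Nor was any of these 7 called in the difference between the lines, where 0.00958% of all genes were called. DESeq2 called none of the 7 there either. None of them had an unadjusted edgeR p under 0.05 in that difference, as 1586 of all genes had.

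The paralogs gfra1a and gfra1b, the zebrafish counterparts of the GDNF receptor, were not lower in mutants. In line 36433, gfra1b measured 7.25, 5.98 and 4.99 CPM in wildtypes and 7.96, 9.26 and 11.4 CPM in mutants. In line 23095 it measured 5.55 and 5.36 CPM in wildtypes and 7.57, 9.59 and 6.38 CPM in mutants. Every mutant library of gfra1b lay above every wildtype library of its line, as happened in both lines for 2.58% of all tested genes, while mutants below wildtypes in both lines, as for gfral, occurred in 1.44%. The log2 fold change of gfra1b was 0.65 (SE 0.22, adjusted p = 0.515) in line 36433 and 0.51 (SE 0.25, adjusted p = 0.339) in line 23095. Averaged over both lines it was 0.58 (SE 0.17, 95% interval 0.22 to 0.94), which did not pass the edgeR test (adjusted p = 0.096). It did pass with DESeq2 (adjusted p = 0.0421) and without wildtype replicate 1 of line 36433 (adjusted p = 0.0425), while the other alternatives gave adjusted p up to 0.288.

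For gfra1a the wildtypes held 8.72, 7.53 and 8.38 CPM and the mutants 10.2, 7.94 and 11.5 CPM in line 36433. In line 23095 they held 7.64 and 6.58 CPM against 9.30, 6.74 and 8.86 CPM. Mutants and wildtypes overlapped in both lines. The average log2 fold change of gfra1a was 0.25 (SE 0.15, 95% interval -0.07 to 0.57, adjusted p = 0.41).

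The artemin receptor gene gfra3 had log2 fold changes of 0.24 (SE 0.31, adjusted p = 0.904) in line 36433 and -0.66 (SE 0.34, adjusted p = 0.35) in line 23095, neither past the threshold. Wildtypes of line 36433 held 8.40, 3.23 and 6.85 CPM against 7.65, 6.69 and 7.53 CPM in mutants, and the groups overlapped. Wildtypes of line 23095 held 9.66 and 9.97 CPM, above the 6.56, 8.03 and 4.29 CPM of their mutants. Groups of that line separated in either direction for 33.8% of all genes, and for 13.5% of genes in line 36433. The difference between the lines' log2 fold changes in gfra3 was -0.90 (SE 0.46, 95% interval -1.89 to 0.08, adjusted p = 0.696).

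The symbol GFRA2, the human name of the neurturin receptor, belonged to 2 identifiers, so gfra2a and gfra2b could not be told apart by name. No sequences were compared, so whether reads were shared between the copies was not checked. The copy ENSDARG00000042723 held 7, 5 and 8 counts in 36433 wildtypes and 5, 7 and 18 counts in their mutants. It held 29 and 14 counts in 23095 wildtypes and 13, 6 and 15 counts in their mutants. Its levels overlapped between the genotypes of line 36433. In line 23095 both wildtypes (1.83 and 0.949 CPM) lay above the mutants (0.775, 0.777 and 0.847 CPM). Groups of that line separated in either direction for 33.8% of all genes, so nothing is read from this separation. The log2 fold changes in mutants were 0.70 (SE 0.55) in line 36433 and -0.79 (SE 0.54) in line 23095, neither passing the test (adjusted p = 0.846 and 0.503). As line 23095 minus line 36433, the log2 difference was 1.67 (SE 0.56, adjusted p = 0.206) between wildtypes. Between mutants it was 0.18 (SE 0.52, adjusted p = 0.913), and neither passed the edgeR test.

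The copy ENSDARG00000044015 held 33 counts in all 11 libraries together. Of these, 12 and 11 lay in the 23095 wildtypes and 1, 4 and 2 in the mutants of that line. The 36433 wildtypes held 2, 1 and 0 counts, and the 36433 mutants held none, which allows up to 0.0704 CPM over that group (3 counts). The 23095 wildtypes measured 0.757 and 0.746 CPM, above all other libraries. Their exact Poisson intervals, 0.391 to 1.32 and 0.372 to 1.33 CPM, cover counting error only. Both include the 0.518 CPM of mutant replicate 2 of that line. This copy passed the filter only through the 23095 wildtypes, so nothing is read from their higher level. With so few counts no fold change is given for this copy.

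No difference in the signalling receptor ret was detected between genotypes or lines. It measured 25.3, 27.6 and 23.7 CPM in 36433 wildtypes and 22.2, 25.5 and 28.1 CPM in their mutants. In line 23095 it measured 25.6 and 26.7 CPM in wildtypes and 24.4, 28.0 and 31.4 CPM in mutants. Its groups overlapped in each comparison. The average log2 fold change of ret was 0.04 (SE 0.11, 95% interval -0.20 to 0.28, adjusted p = 0.891). By line the 95% intervals were wider, at -0.33 to 0.30 in line 36433 and -0.26 to 0.45 in line 23095.

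**Figure D3:**
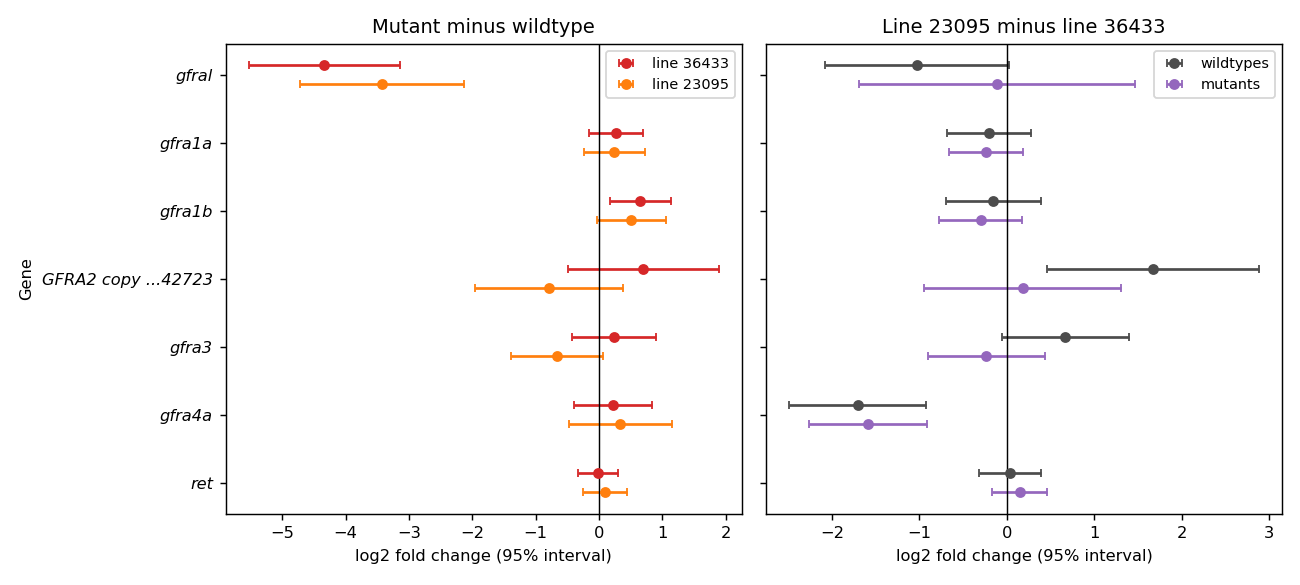
Log2 fold changes of 7 receptor family genes with 95% intervals, as mutant minus wildtype in each line (left) and as line 23095 minus line 36433 in wildtypes and in mutants (right); the GFRA2 copy with 33 counts is left out. On the left gfral lies at -4.33 and -3.43, and its intervals there are no test, since it was chosen for this fall. Of the other genes on the left, no interval lies wholly below 0, and that of gfra1b in line 36433 lies wholly above 0. On the right gfra4a lies at -1.71 and -1.59, and the wildtype interval of the plotted GFRA2 copy (0.45 to 2.88) lies wholly above 0.

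The gene gfra4a was lower in line 23095 than in line 36433, and no difference between genotypes was detected. It measured 4.17, 2.69 and 3.07 CPM in 36433 wildtypes and 3.90, 3.06 and 4.63 CPM in 36433 mutants. In line 23095 it measured 1.20 and 0.814 CPM in wildtypes and 1.31, 1.04 and 1.41 CPM in mutants. Every library of line 23095 lay below every library of line 36433, a separation in both genotypes that 2.58% of all tested genes showed in this direction. The mutant effect on gfra4a was 0.22 (SE 0.28, adjusted p = 0.905) in line 36433 and 0.34 (SE 0.38, adjusted p = 0.7) in line 23095, both on the log2 scale.

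Between mutants, gfra4a was 3.01-fold lower in line 23095 (log2 difference -1.59, SE 0.31, adjusted p = 0.0293). It was the 1 gene of the 8 called there, against 1.13% of all genes. Between wildtypes, which share no library with the mutants, the difference was -1.71 (SE 0.36) and did not pass with edgeR (adjusted p = 0.0628), although it did with DESeq2 (adjusted p = 0.00645). In that comparison 0 of the 8 genes were called, against 0.393% of all genes, and 3 of the 8 had an unadjusted p under 0.05, as had 2859 of all 20886 genes. The call between mutants was lost when any 1 of the 6 mutant libraries was left out, with adjusted p up to 0.113. A line difference averaged over genotypes, added after the data had been seen, was -1.65 (SE 0.24, adjusted p = 0.00327) and stayed past the threshold in all 11 fits that left out a library. In that comparison 2 of 8 genes were called, against 3.56% of all genes. The other was the GFRA2 copy with 33 counts, which passed the filter only through the 23095 wildtypes, where it is high, so nothing is read from its call. The labels do not say whether the lines were raised, collected or sequenced together, so line and any batch that went with it cannot be told apart. Of the 10 nearest neighbours of gfra4a in RefSeq, 8 were tested, with smallest adjusted p of 0.477 between wildtypes (noto) and 0.727 between mutants (ap5s1).

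No other gene of the pathway was called. Over 4 lists of ligands, additional co-receptors, RET adaptors and ERK feedback genes, 47 genes were tested and 0 were called by edgeR in either line or in the average, against 0.168%, 1.63% and 2.33% of all genes. The median log2 fold change of the 47 was 0.10 in line 36433, 0.08 in line 23095 and 0.11 in the average, where the medians of all genes were -0.02, 0.02 and 0.00. At an unadjusted p under 0.05 there were 1, 6 and 6 of the 47, beside 1410, 3516 and 3634 of the 20886 genes tested. All 6 in the average were RET adaptors. Of the RET adaptors DESeq2 called 1, where it called 1083 of all genes. Fits that left out a library called up to 3, where they called 56 to 1439 of all genes. The other 3 lists gave 0 calls in the average under every alternative.

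Among ligands, GDNF measured 1.79 to 3.21 CPM in 36433 wildtypes, 2.88 to 3.90 CPM in 36433 mutants, 3.39 to 3.98 CPM in 23095 wildtypes and 2.77 to 4.40 CPM in 23095 mutants. Its average log2 fold change was 0.20 (SE 0.21, adjusted p = 0.675). The artemin genes artna and artnb had average log2 fold changes of 0.76 (SE 0.44, adjusted p = 0.396) and -0.09 (SE 0.39, adjusted p = 0.932). Neurturin, persephin and GDF15, the ligand of GFRAL in mammals, were not analysed here. A further co-receptor gene, gfra4b, had an average log2 fold change of -0.37 (SE 0.30, adjusted p = 0.562).

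The smallest adjusted p among RET adaptors belonged to ptpn11b, a phosphatase that links receptor kinases to ERK (average log2 fold change 0.68, SE 0.21, adjusted p = 0.114), and to PLCG1, a phospholipase that binds active RET (0.35, SE 0.11, adjusted p = 0.128). Of genes that ERK signalling raises, DUSP6, a phosphatase of ERK, had an average of 0.22 (SE 0.11, adjusted p = 0.328), the ETS factor ETV4 had 0.32 (SE 0.16, adjusted p = 0.303) and SPRY1, an inhibitor of receptor kinases, had 0.60 (SE 0.29, adjusted p = 0.304). None of these passed the test.

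Markers of the tissues in which RET family receptors are known were mostly not called. For enteric and autonomic precursors, 0 of 13 tested identifiers were called in the average (median log2 fold change -0.01). FOXD3, a neural crest factor, was the 1 identifier called higher in line 23095, where 0.694% of all genes were, at 67.7 to 93.7 CPM in mutants against 37.0 and 46.0 CPM in wildtypes (log2 fold change 0.99, adjusted p = 0.0471). The neural crest factor SOX10 had an average of -0.09 (SE 0.15, adjusted p = 0.782). The endothelin receptor gene EDNRB had an average of -0.70 (SE 0.22, adjusted p = 0.123) and the neurogenic factor gene ascl1a one of -0.76 (SE 0.23, adjusted p = 0.114). For spinal motor neurons 0 of 9, for Rohon-Beard and other sensory neurons 0 of 15, for pronephros 0 of 13 and for head neural tissue 0 of 6 tested identifiers were called in the average by edgeR, with 3 of 13 for the enteric list and 1, 3, 2 and 1 for these 4 lists at an unadjusted p under 0.05, as had 3634 of all 20886 genes. In the average 2.33% of all genes were called. DESeq2 called 1 of the enteric and 1 of the head list, and none of the other 3, where it called 1083 of all genes.

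White blood cell markers were mostly lower in mutants, a direction shared with gfral. In the average over both lines, 7 of 10 tested myeloid identifiers were called lower, where 1.03% of all genes were, and 0 higher, with a median log2 fold change of -2.00. By line, 1 of the 10 was called lower in line 36433, where 10 of all 20886 tested genes were. In line 23095, 5 of the 10 were called lower, where 0.934% of all genes were. Median log2 fold changes of the list were -1.51 and -2.59 in these lines, where gfral had -4.33 and -3.43. The exception in direction of the average was SPI1, a myeloid transcription factor, at 0.82 (SE 0.31, adjusted p = 0.185). That list was written with the fall of its peroxidase gene EPX in these libraries known, so its count is not independent evidence. The 13 identifiers on the list summed to 32.7 to 70.7 CPM in 36433 wildtypes and 16.7 to 27.8 CPM in 36433 mutants. They summed to 52.5 and 62.9 CPM in 23095 wildtypes and 10.2 to 16.7 CPM in 23095 mutants, so that mutants lay below wildtypes without overlap, as in gfral. The lysozyme gene lyz was at 0 in at least 1 of the 23095 mutants and at most 0.130 CPM there, against 1.33 and 1.49 CPM in wildtypes. In line 36433 lyz overlapped between genotypes, at 0.156 to 1.13 CPM in mutants and 0.321 to 7.04 CPM in wildtypes. EPX measured 1.09 to 2.13 CPM in 36433 mutants against 4.36 to 15.4 CPM in wildtypes, and 0.119 to 0.339 CPM in 23095 mutants against 6.25 and 7.25 CPM in wildtypes. Wildtype replicate 1 of line 36433 had the lowest myeloid sum of the 5 wildtypes. In replicates 2 and 3 of the 36433 wildtypes the order differed, with myeloid sums of 48.4 and 70.7 CPM and gfral at 13.4 and 7.87 CPM. The part of white blood cells in the gfral result was not tested.

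In 3 further lists, single members were called lower in the average, against 1.03% of all genes. These were the muscle calcium-binding protein gene pvalb1 (1 of 13, log2 fold change -2.15, adjusted p = 0.0397), 1 of 2 identifiers of the chemokine scavenger gene ACKR3 of the lateral line list (1 of 12, -1.03, adjusted p = 0.035) and the retinol carrier gene RBP4 of the yolk layer (1 of 6, -0.98, adjusted p = 0.0214). The other ACKR3 identifier was not called (0.07, SE 0.11, adjusted p = 0.789), and the shared symbol does not tell which copy is ackr3b. In line 23095, 3 of 13 muscle identifiers were called lower, against 0.934% of all genes, and the summed muscle level was 12617 to 24166 CPM in mutants against 25801 and 29844 CPM in wildtypes. In line 36433 that level overlapped, at 16464 to 21080 CPM in mutants and 13766 to 21237 CPM in wildtypes. The yolk layer list summed to 6190 to 12475 CPM in 23095 mutants against 12752 and 21860 CPM in wildtypes, and overlapped between the genotypes of line 36433. The part of these tissues in the gfral result was not tested.

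Among 14309 genes with a symbol and a mean log2 CPM of at least 1, those whose log2 CPM followed gfral most closely over the 11 libraries were GALC (Pearson's r = 0.92), AGR2 (r = 0.917), pvalb8 (r = 0.906), SLC29A4 (r = 0.905) and foxa3 (r = 0.903). GALC encodes a lysosomal galactosylceramidase, AGR2 a protein folding enzyme of secretory cells, pvalb8 a parvalbumin, SLC29A4 a monoamine transporter and foxa3 an endodermal transcription factor. Since gfral differs between genotypes, genes that do so too lead such a ranking, and all 5 had lower log2 levels in mutants of both lines. After the group means were removed, r fell to 0.41 for GALC, 0.57 for AGR2, 0.57 for pvalb8, 0.73 for SLC29A4 and 0.41 for foxa3. These values are descriptions over libraries that share depth and pools, and carry no p. GALC and SLC29A4 each share their symbol with a further identifier.

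Of these, pvalb8 came nearest to gfral in the size of its difference. It measured 3.65, 17.9 and 17.0 CPM in 36433 wildtypes and 2.58, 1.56 and 1.45 CPM in their mutants. In line 23095 it measured 6.37 and 6.71 CPM in wildtypes and 0.417, 0.518 and 0.339 CPM in mutants. As for gfral, wildtype replicate 1 was the lowest wildtype of line 36433. The same library was lowest in AGR2, at 18.7, 46.8 and 59.0 CPM in wildtypes against 10.6 to 15.5 CPM in mutants.

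**Figure D4:**
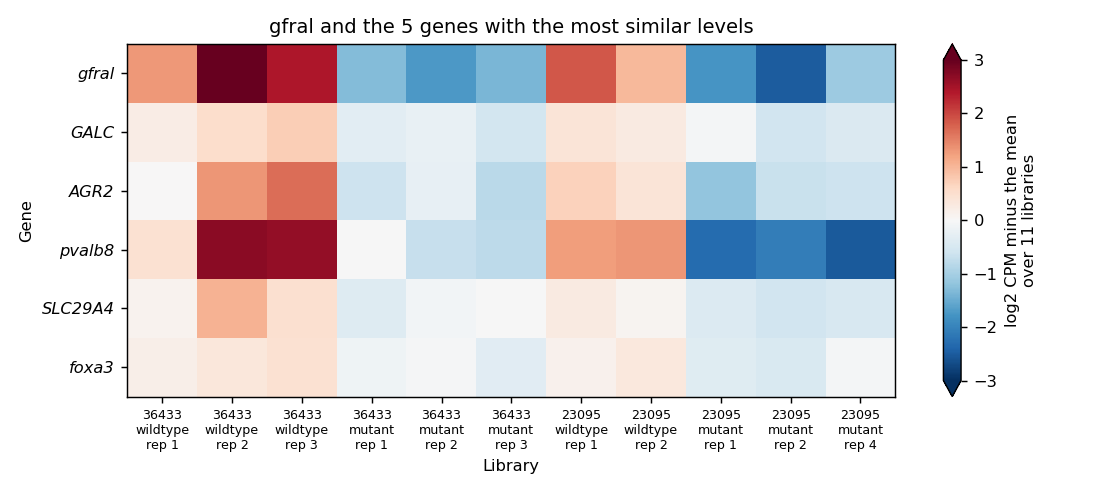
Log2 CPM of gfral and the 5 genes most like it (rows) in 11 libraries (columns), each gene centred on its mean; red is higher and blue is lower, and the scale ends at -3 and 3. The wildtype columns of both lines are red or near white and the mutant columns blue or near white, with wildtype replicate 1 of line 36433 paler than replicates 2 and 3.

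For ret, the genes most alike were prdm9 (r = 0.914), DET1 (r = 0.913), mapk15 (r = 0.864), METTL16 (r = 0.839) and fam210b (r = 0.838), and with group means removed these correlations were 0.95, 0.902, 0.873, 0.849 and 0.878. They were picked as the highest of 14308 over 11 libraries, and both sets of r use the same libraries. The values are descriptions and carry no p. Within the family, r with gfral over the 11 libraries ran from -0.78 for gfra1b to 0.15 for the GFRA2 copy with 33 counts, and was -0.11 for ret. In RefSeq, gfral shares its chromosome with other family members, 4 of the 8 counting gfral itself, and kdm1a lies on another. Of the 10 nearest RefSeq neighbours of gfral, 7 were tested, with average log2 fold changes of -1.15 to 0.07 and a smallest adjusted p in the average of 0.129 (col21a1).

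In the authors' deposited tables of comparisons, gfral had a log2 fold change of -2.50 in line 36433 and -1.69 in line 23095, smaller in size than the values fitted here and of the same sign. The authors' deposited tables also set the lines across each other, with gfral at -2.54 for 23095 mutants against 36433 wildtypes and at 1.65 for 23095 wildtypes against 36433 mutants. These comparisons share libraries with the others and add no separate evidence. For gfra4a the authors' deposited tables gave -1.16 (adjusted p = 0.00738) between wildtypes and -1.20 (adjusted p = 0.00184) between mutants, both as line 23095 against line 36433. For ret the values in the authors' deposited tables lay between -0.02 and 0.14. No source used here says if the authors' fold changes were shrunk.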

How the data were processed

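The authors deposited 1 table of raw read counts per Ensembl gene, whole numbers without normalization per the file headers and values, and tables of their own comparisons with log2 fold changes and adjusted p-values, per the file headers. Build GRCz11 and the tools STAR 2.7.2c, cutadapt 1.16 and DESeq2 1.22.2 stand in the submitters' processing notes. The tool and strand setting used for counting, and the annotation, are not given in the sources used here. Per the labels' protocols, libraries were stranded total RNA after removal of ribosomal RNA.

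From the counts, 20886 genes passed edgeR's filterByExpr (minimum count 10, minimum total 15). The test was the quasi-likelihood one of edgeR 4.0.16 under R 4.3.3 (TMM, glmQLFit, glmQLFTest, two-sided) in 1 model of 4 group means over 11 libraries with 7 residual degrees of freedom, with Benjamini-Hochberg adjustment over all tested genes. SEs were derived from the F statistic and intervals use its t quantile. CPM come from edgeR's cpm, and log2 CPM use a prior count of 2. P-values measure only the spread between pools. Alternatives replaced TMM by the size factors of DESeq2 or by library totals, dropped the filter or asked for 1 CPM or more in 3 libraries, used DESeq2 1.42.0, fitted only the groups compared, added a replicate block, or left out each library in turn. The edgeR fit was checked on simulated counts for the average mutant effect only.

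Members and lists were chosen with earlier results of these data known. Of 148 list symbols in 13 lists, 137 were matched, through the gene name table, RefSeq synonyms and human symbols. A match of ncam1b to ncam3 was dropped after ncam3 had been called between wildtypes, because RefSeq holds ncam3 as a gene of its own; the count of 0 pathway calls in the mutant comparisons does not rest on it. Of GFRA1, the identifier other than gfra1a was taken as gfra1b. Named genes were the family, kdm1a, called list members, up to 4 more per list with the smallest p, and the 5 most like gfral and ret. RefSeq, on another assembly, served only for names and neighbours. No sequence or transcript length was used, so levels are not compared between genes.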

Additional observations from a re-analysis of the deposited data

Results flagged for a closer look

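The mutant effect on kdm1a differed between the lines. Its log2 fold change was 2.20 higher in line 23095 than in line 36433 (SE 0.22, edgeR adjusted p = 0.00407), since the transcript was 4.27-fold lower in all 3 mutants of line 36433 and not lower in line 23095. The call was lost with the replicate number as a block (adjusted p = 0.0706) and without wildtype replicate 1 of line 23095 (adjusted p = 0.12). Both lines had low gfral in every mutant library. Why the transcript differed was not tested.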

How the results depend on the processing

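The count of receptor genes called kept its value under most alternatives. For mutants against wildtypes the 1 call of the main fit was gfral, chosen for that fall, so keeping it carries no weight. In line 23095 it went from 1 to 0 with the replicate block and with only the groups compared. In the average it went from 1 to 2 with DESeq2, where gfra1b joined gfral. Between wildtypes it went from 0 to 1 with DESeq2, and between mutants from 1 to 0 with the replicate block. In the averaged line difference it went from 2 to 1 with no filter, with at least 1 CPM in 3 libraries and with the replicate block. Leaving out a library gave 0 to 1 called in line 36433, in line 23095 and between mutants, and 1 to 2 in the average and in the averaged line difference. Single genes were counted as unchanged in 1059 of 1089 refits, lost a call in 26 and gained one in 3. Refits without an adjusted p, and changes of sign in uncalled genes near 0 such as ret, were counted as unchanged. For genes not called, a change of sign was counted only where the value exceeded its SE, which left 1: the GFRA2 copy ENSDARG00000042723 in line 36433 turned to -0.058 without mutant replicate 3 (range without a library -0.058 to 0.979). Deviations of libraries with the same replicate number correlated at -0.18 to 0.20, and those with different numbers at -0.20 to 0.18. These values do not settle whether the pools were paired. Under the replicate block gfral had a log2 fold change of -4.02 in line 23095. Counts over all genes moved by more than 1.5 times in several settings. In line 36433, 35 genes became 124 with DESeq2, 22 with the block and 12 to 64 without a library. In line 23095, 340 became 980, 9 and 4 to 619, and 6 with only the groups compared. In the average, 486 became 1083, 108 and 56 to 1439. In the difference, 2 became 57 and 0. Between wildtypes, 82 became 569 with DESeq2, 52 with only the groups compared and 21 to 301 without a library. Between mutants, 235 became 602, 64 and 65 to 384, and in the averaged line difference 744 became 1406, 291 and 283 to 1717. With library totals alone the median of all genes in line 23095 moved from 0.02 to 0.14, and the share of called genes that were higher moved from 42.6% to 56.1% there, from 55.8% to 68.2% in the average and from 64.6% to 52.8% between wildtypes. Myeloid calls in the average ranged from 2 to 9. The causes were not tested. Where 1 wildtype of line 23095 was left, its spread was taken from the other groups. Depth limits gfral in mutants (1 to 10 counts) and the GFRA2 copies most.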
